A study of Mus musculus with 8 samples.

Results

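Keratins were represented on these mouse arrays by 68 probes with 52 gene names, out of 39429 probes with 30222 names in all. They were chosen as the probes that are not controls and whose gene name in the files begins with Krt and a digit, which leaves out the keratin-associated proteins. Of the 52 genes, 27 were type I, 24 were type II and 1, Krt222, is a keratin-like gene that was given no type here. By tissue they fell into 6 keratins of simple epithelia, 21 of basal and stratified epithelia, 24 of hair follicle and nail, and Krt222. After a filter on dim probes, 31 keratin probes of 27 genes entered the comparison, among 17458 genes.

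RNA was measured in 4 samples of cells with ShcA R175Q and 4 samples of cells with wild-type ShcA. Both groups were NMuMG-NT2197 cells, which derive from NMuMG, an epithelial line of mouse mammary gland, and both received ShcA as a cDNA from a pMSCV/hygro vector, which the labels say was transfected. ShcA is an adaptor that docks on activated receptor tyrosine kinases, and R175Q exchanges an arginine for a glutamine in its PTB domain, a part that binds phosphotyrosine. The labels do not say what sets NMuMG-NT2197 apart from NMuMG, whether the cells were clones or pools, whether they kept their own ShcA, or whether replicates came from separate cultures. The p-values therefore cover only the spread between these samples, which may be technical. The protocol text speaks of microdissected material, which conflicts with the cultured cells it describes, and the RNA went through repeated linear amplification. On every array the sample was labelled with Cy3 and a shared reference RNA with Cy5, and dyes were never swapped, so each value is a log2 ratio of the sample over that reference. The reference is called mouse in 1 field of the labels and human in another.

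Keratins are the intermediate filament proteins of epithelial cells. They assemble only as heterodimers of a type I with a type II partner, and the partners made in a cell change with its kind: Krt8 with Krt18 in simple epithelia, together with Krt7 and Krt19 in ducts and glands, Krt5 with Krt14 in basal cells, and a large separate set in hair. In the mammary gland, Krt8, Krt18 and Krt19 mark luminal cells and Krt5 and Krt14 mark basal and myoepithelial cells. In the mouse genome the family lies in clusters. In the files' mm9 coordinates, 34 probes of 26 type I genes lay on chromosome 11 and 30 probes of the 24 type II genes on chromosome 15, where the type I gene Krt18 also lay beside Krt8.

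The share of spots well above background ranged from 53.7% to 63.0% in Cy3 and from 61.1% to 71.7% in Cy5, with 0 saturated spots. Across the genes tested, Pearson's r between arrays was 0.987 to 0.995 within R175Q, 0.983 to 0.996 within wild type and 0.970 to 0.980 between the groups. The arrays lay on 4 slides, of which slide 1 held R175Q replicate 1 alone, slide 2 held R175Q replicate 2 and wild-type replicate 1, slide 3 held R175Q replicate 3 and wild-type replicates 2 and 3, and slide 4 held replicate 4 of each group. The epithelial genes Epcam and Cdh1 were well above background on all 8 arrays.

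Many keratin probes gave no signal above background. Of the 68 keratin probes, 22 (32.4%) were well above background in Cy3 on all 8 arrays, 30 (44.1%) on no array and 16 on some arrays. Over all 39429 probes the shares were 51.6% on all arrays and 31.7% on none. Of 66 probes for keratin-associated proteins, 15 were well above background on all 8 arrays and 29 on none. By gene, taking the best probe of each, 19 of 52 keratins were well above background on all 8 arrays, 14 on some and 19 on none.

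The simple epithelial keratins were the class most often measured. Of these 6, Krt7, Krt8, Krt18, Krt19 and Krt23 were well above background on all 8 arrays and Krt20 on 3 R175Q and 4 wild-type arrays. In the basal and stratified class, 8 of 21 genes were above background throughout, namely Krt10, Krt13, Krt14, Krt16, Krt17, Krt42, Krt79 and Krt80, and 6 on no array, namely Krt2, Krt4, Krt9, Krt12, Krt77 and Krt78. Krt14 thus gave signal on every array, whereas its partner Krt5 stood above background on 3 R175Q and 3 wild-type arrays. Krt1, the suprabasal partner of Krt10, was above background on 1 R175Q array and no wild-type array. Of the 24 hair and nail keratins, 5 were above background on all arrays, namely Krt27, Krt31, Krt73, Krt81 and Krt85, and 13 on none, namely Krt25, Krt26, Krt28, Krt33a, Krt33b, Krt34, Krt35, Krt39, Krt71, Krt74, Krt82, Krt84 and Krt87. The other genes above background on some arrays but too few for the test were Krt6a and Krt40 (1 R175Q and 1 wild-type array each), Krt72 (1 R175Q array), Krt24 (2 wild-type arrays) and Krt32 (1 wild-type array). A probe that is not well above background gives a bound and not an absence of RNA, and the brightness of different probes cannot be compared.

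**Figure D1:**
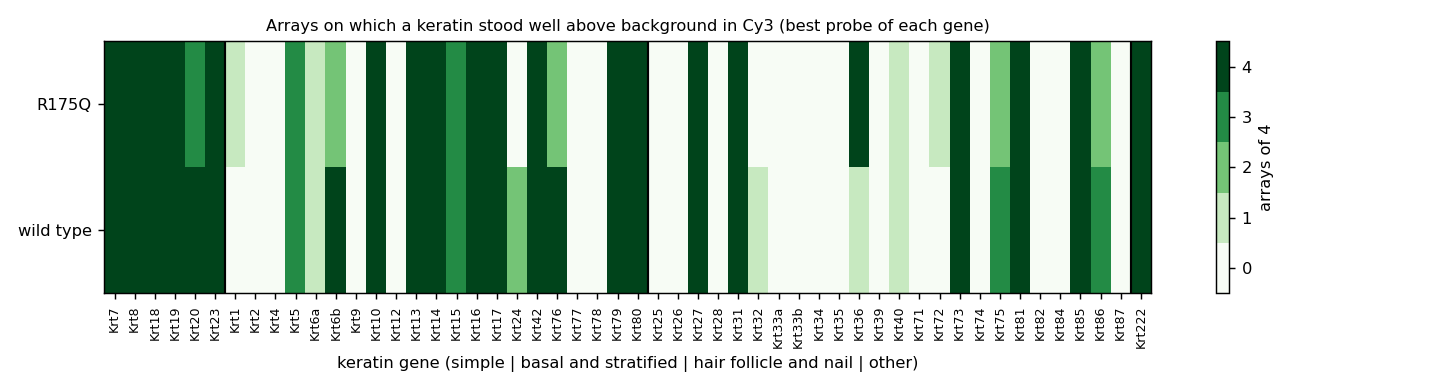
Number of arrays, of 4 in each group, on which the best probe of each of the 52 keratin genes stood well above background in Cy3, with R175Q in the upper row and wild type in the lower row; genes run along the horizontal axis by class and darker green means more arrays. Most genes had the same or nearly the same count in both rows, and Krt36 differed most, with 4 R175Q arrays and 1 wild-type array.

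Of the 27 keratins tested, 9 fell and 2 rose in R175Q at a limma adjusted p under 0.05, and 16 did not pass. The keratins that fell were Krt7, Krt8, Krt19, Krt20, Krt13, Krt42, Krt81, Krt85 and Krt86, and those that rose were Krt16 and Krt36. Krt36 met the filter on dim probes through its R175Q arrays, with 1 of 4 wild-type arrays well above background, so its place among the genes tested depends on the group where it is high. With it included, 40.7% of the keratins tested changed, beside 19.4% of all 17458 genes, and 33.3% fell, beside 9.76% of all genes, while 2 of 27 rose, beside 9.66%. The median keratin difference was -0.20 on the log2 scale and that of all genes -0.01. In 13 of the 27 keratins the arrays of R175Q and wild type did not overlap, beside 23.9% of all genes. Because the RNA is from bulk samples, fewer cells that make a keratin and less RNA per cell cannot be told apart.

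The counts depend on how the arrays were corrected. With median centring in place of loess, 7 keratins fell and 3 rose, beside 16.9% of all genes changed. In the authors' deposited ratios 7 fell and 4 rose by the same limma test, beside 18.3% of all genes changed. Krt23 was among those that rose in both. Without R175Q replicate 4, 7 keratins passed, beside 14.7% of all genes, with Krt36, Krt85, Krt8 and Krt86 lost. With the background model fitted on all spots, in place of the negative control spots, 3 keratins changed, beside 4.99% of all genes, and all 3 fell, beside 2.35%; these were Krt7, Krt19 and Krt42. The other 8 kept their direction under that model but had adjusted p from 0.0624 for Krt8 to 0.578 for Krt36. That model placed the Cy3 background of the 8 arrays between -690 and -0.369 intensity units, whereas the medians of their negative control spots lay between 13.1 and 22.7.

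**Figure D2:**
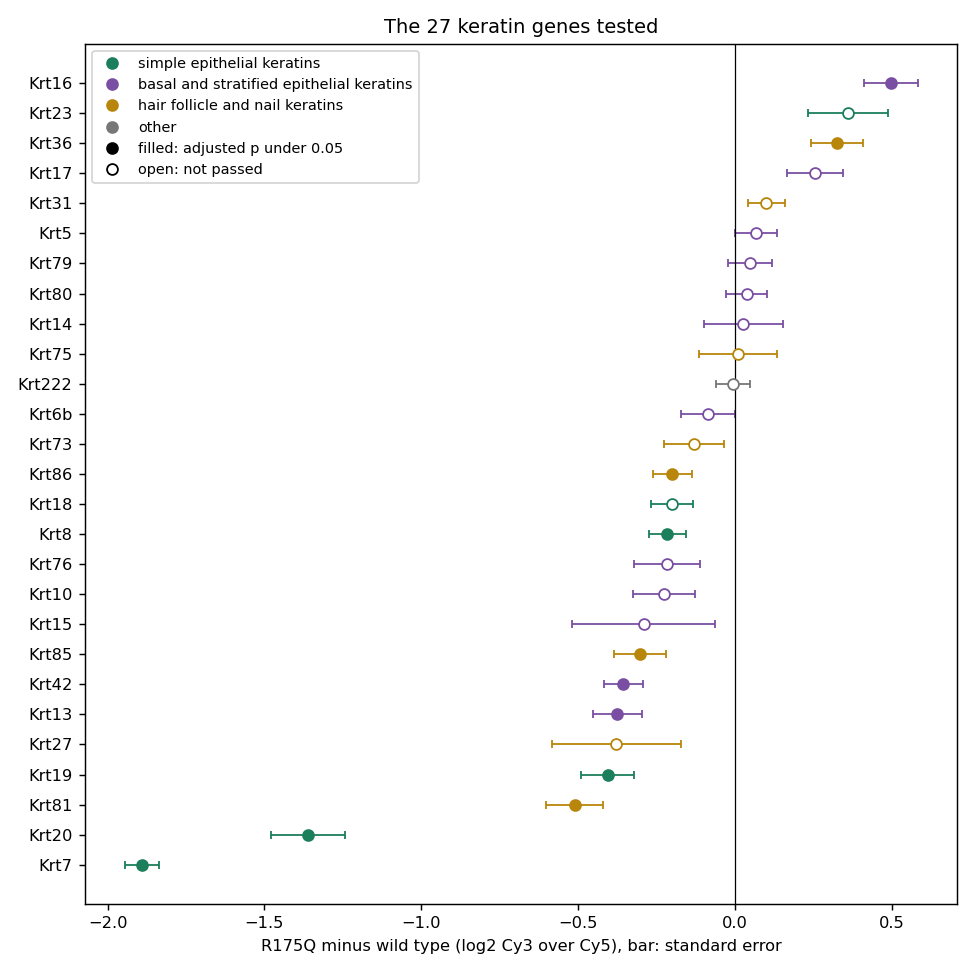
Difference between R175Q and wild type in each of the 27 keratin genes tested, on the horizontal axis in log2 of Cy3 over Cy5, ordered from the highest to the lowest; bars are standard errors, filled points passed an adjusted p of 0.05 and colours mark the class. Krt7 at -1.89 and Krt20 at -1.36 lie apart from the other keratins, which lie between -0.51 and 0.50.

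In the simple epithelial class, 4 of 6 genes fell, none rose by limma's adjusted p (1 was higher at an unadjusted p under 0.05) and 2 did not pass, beside 9.76% of all genes lower and 9.66% higher, with a median difference of -0.31. The probes behind the 4 genes that fell are shown here 5′ to 3′, since each of these results rests on the RNA that binds such a 60-base stretch. None of their positions was placed in a coding or untranslated part of the transcript.
Krt7, chr15:101253718-101253777, plus strand, mm9: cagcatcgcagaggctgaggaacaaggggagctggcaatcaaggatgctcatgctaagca
Krt20, chr11:99289776-99289835, minus strand, mm9: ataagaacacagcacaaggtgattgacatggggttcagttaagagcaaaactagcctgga
Krt19, chr11:100002392-100002451, minus strand, mm9: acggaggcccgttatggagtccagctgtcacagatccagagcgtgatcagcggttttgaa
Krt8, chr15:101828827-101828886, minus strand, mm9: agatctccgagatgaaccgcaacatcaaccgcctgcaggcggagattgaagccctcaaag

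Krt7, the type II keratin of glandular and ductal epithelium, fell most. It had log2 ratios of -0.95, -1.05, -0.99 and -1.10 in R175Q replicates 1 to 4, against 0.87, 0.82, 0.87 and 0.91 in wild-type replicates 1 to 4. Every R175Q array lay below the reference RNA and every wild-type array above it. The means were -1.02 ± 0.07 in R175Q and 0.87 ± 0.04 in wild type (SD, n = 4 each), so that Krt7 fell to a level 3.71-fold lower in R175Q (log2 difference -1.89 ± 0.06, adjusted p = 1.25e-07). Before any normalization, its Cy3 intensity less local background was 459, 517, 347 and 321 in R175Q, against 2186, 1346, 1595 and 1844 in wild type. In the series as a whole, Krt7 had the second lowest p and the second deepest fall among 17458 genes. With the background model fitted on all spots, described above, its difference was -1.55 (adjusted p = 5.70e-04).

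Krt20, a type I keratin known from intestinal and urothelial cells, stood next. Its log2 ratios were -4.47, -4.48, -4.42 and -4.67 in the R175Q arrays, against -3.03, -3.47, -2.87 and -3.23 in the wild-type arrays. The groups did not overlap, and all 8 arrays lay far below the reference RNA. Krt20 was 2.57-fold lower in R175Q (log2 difference -1.36 ± 0.12, adjusted p = 4.55e-05). The signal was dim, with 68.9, 84.2, 65.4 and 56.7 intensity units above local background in R175Q, against 245, 149, 307 and 178 in wild type, and 1 of the 4 R175Q arrays was not well above background. With the background fitted on all spots the difference was -1.14 with an adjusted p of 0.265, and with the scanner's processed ratio it was -2.11 with an adjusted p of 0.00108.

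Krt8 and Krt18, the partners that form the filaments of simple epithelial cells, moved little. Krt8 had log2 ratios of 1.54, 1.42, 1.33 and 1.42 in R175Q, against 1.67, 1.66, 1.67 and 1.58 in wild type. All R175Q values were lower than all wild-type values, and Krt8 was 1.16-fold lower (log2 difference -0.22 ± 0.06, adjusted p = 0.0292). That call was lost when R175Q replicate 2, 3 or 4 or wild-type replicate 1 or 2 was left out, with differences between -0.21 and -0.18. Krt18 had log2 ratios of 1.78, 1.68, 1.94 and 1.83 in R175Q, against 1.97, 2.10, 1.97 and 1.99 in wild type. Its groups did not overlap either, but the difference of -0.20 ± 0.07 did not pass (adjusted p = 0.0648). It passed when R175Q replicate 3, its highest R175Q array, was left out, with a difference of -0.25.

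Krt19, a type I keratin without the usual tail domain that is made in ducts and luminal cells, fell. The ratios were 1.65, 1.64, 1.65 and 1.71 in R175Q, against 2.05, 1.93, 2.33 and 1.97 in wild type. The R175Q arrays lay close together and below every wild-type array, of which replicate 3 was the highest. Krt19 was 1.33-fold lower (log2 difference -0.41 ± 0.08, adjusted p = 0.00793). With slide as a fixed block, it no longer passed, at -0.39 ± 0.11 (adjusted p = 0.0543). Krt23, another type I keratin, had 1.14, 1.48, 1.30 and 1.12 in R175Q, against 0.95, 0.53, 1.13 and 0.99 in wild type. The lowest R175Q array lay below the highest wild-type array, and the difference of 0.36 ± 0.13 did not pass (adjusted p = 0.0819), but it did without wild-type replicate 3, at 0.44.

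**Figure D3:**
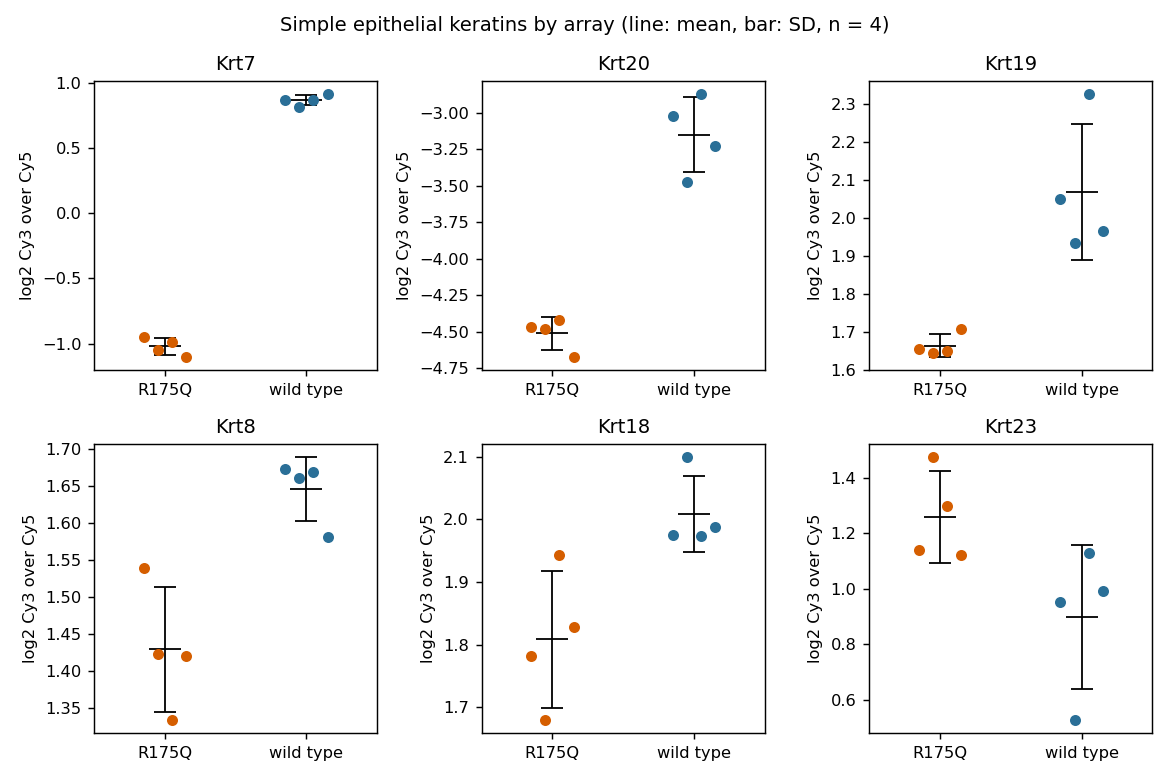
Log2 ratio of Cy3 over Cy5 in each array for the 6 simple epithelial keratins, with R175Q on the left and wild type on the right of each panel; points are arrays, lines are means and bars are SD (n = 4), and each panel has its own vertical scale. R175Q arrays lie below all wild-type arrays in Krt7, Krt20, Krt19, Krt8 and Krt18 and overlap them in Krt23.

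The promoters of the 2 keratins that fell most differ in their letters. For 35 of the 52 keratins, including 17 of the 27 tested, RefSeq's table for GRCm38.p6 gave a window, of which the 250 bases before the annotated start were searched on either strand for 3 short words. Capitals mark the words found.
Krt7 promoter, chr15:101412153-101412402, plus strand, GRCm38.p6: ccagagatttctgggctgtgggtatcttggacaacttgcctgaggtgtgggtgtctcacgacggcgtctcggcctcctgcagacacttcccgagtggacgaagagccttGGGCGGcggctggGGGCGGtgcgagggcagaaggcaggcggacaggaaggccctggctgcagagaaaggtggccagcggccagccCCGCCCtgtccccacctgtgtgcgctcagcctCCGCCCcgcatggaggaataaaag
Krt20 promoter, chr11:99438154-99438403, minus strand, GRCm38.p6: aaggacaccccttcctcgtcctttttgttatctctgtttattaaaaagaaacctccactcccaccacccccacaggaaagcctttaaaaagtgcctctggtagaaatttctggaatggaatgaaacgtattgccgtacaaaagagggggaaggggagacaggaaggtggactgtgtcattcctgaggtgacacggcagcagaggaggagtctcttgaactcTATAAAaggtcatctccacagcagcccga
The Krt7 window held 4 matches to GGGCGG, the core of a GC box, counting its complement CCGCCC, with the nearest beginning 24 bases before the start, and no TATAAA. That of Krt20 held 1 TATAAA, the core of a TATA box, beginning 29 bases before the start, and no GGGCGG. Over all 32851 windows of the table, 12.37% held TATAAA and 32.74% held GGGCGG. Among 36 keratin windows of 35 genes, 17 held TATAAA and 2 held GGGCGG, the other gene with GGGCGG being Krt75. TGANTCA, the AP-1 word, was in 6.75% of all windows and in 2 keratin windows, both of Krt13. A match is a match of letters and not a measured binding site.

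In the basal and stratified class, 2 of 12 genes tested fell, 1 rose and 9 did not pass, which is 25.0% called, near the 19.4% of all genes, and the median difference was -0.03. Krt16, a type I keratin that partners Krt6 and is induced in stressed and wounded epidermis, rose. It had 0.77, 0.77, 0.89 and 0.63 in R175Q, against 0.39, 0.08, 0.39 and 0.22 in wild type. Every R175Q array was higher than every wild-type array, and the level was 1.41-fold higher (log2 difference 0.50 ± 0.09, adjusted p = 0.00262). Its partner genes Krt6a and Krt6b gave little signal: Krt6a was not tested, and Krt6b differed by -0.09 ± 0.09 (adjusted p = 0.561). Krt17, a type I keratin of skin appendages and of basal cells, had 1.00, 1.10, 0.93 and 0.94 in R175Q, against 0.68, 0.50, 0.89 and 0.87 in wild type. Its groups did not overlap, but the difference of 0.25 ± 0.09 did not pass (adjusted p = 0.0782); it did without wild-type replicate 3, at 0.31.

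Krt42 fell, and so did Krt13 by its brightest probe. Krt13, a type I keratin of the lining of mouth and oesophagus, had 1.88, 1.76, 1.75 and 1.54 in R175Q, against 2.10, 2.06, 2.22 and 2.04 in wild type. No R175Q array reached the lowest wild-type array, and Krt13 was 1.30-fold lower by its brightest probe (log2 difference -0.38 ± 0.08, adjusted p = 0.00792). The other tested Krt13 probe gave far lower ratios, with means of -4.39 in R175Q and -4.43 in wild type. By that other probe the difference was 0.04 ± 0.07. Krt42, a type I keratin gene that is a pseudogene in human, had 1.76, 1.76, 1.76 and 1.85 in R175Q, against 2.14, 2.01, 2.24 and 2.17 in wild type. The R175Q arrays lay close together, and the highest was still below all wild-type arrays. Krt42 was 1.28-fold lower (log2 difference -0.36 ± 0.06, adjusted p = 0.00293). Its probe at chr11:100128252-100128311 matched a Krt28 probe in 41 of 58 aligned bases (70.7%), and that Krt28 probe was well above background on no array. The other Krt42 probe was also well above background on no array and was not tested, so the fall rests on a single probe. Whether the tested Krt42 probe or the brightest Krt13 probe also binds RNA of other keratins was not tested.

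Krt5 and Krt14, the pair of basal cells, and Krt10 of suprabasal cells did not pass. Krt14, which partners Krt5 in basal and myoepithelial cells, had -2.42, -2.85, -2.80 and -2.77 in R175Q, against -2.41, -2.83, -2.79 and -2.92 in wild type. The groups overlapped over nearly their whole range, and the difference was 0.03 ± 0.13 (adjusted p = 0.916), a sign that turned under 9 of 26 alternatives. For Krt5 the difference was 0.07 ± 0.07 (adjusted p = 0.561). Krt10, the type I keratin of differentiating epidermis, had 1.74, 1.82, 1.67 and 1.78 in R175Q, against 2.10, 1.86, 1.75 and 2.21 in wild type. The lowest wild-type array lay among the R175Q arrays, and the difference of -0.23 ± 0.10 did not pass (adjusted p = 0.147), although it did without wild-type replicate 3, at -0.31.

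Krt79, a type II keratin of the hair canal and sebaceous duct, had -0.77, -0.51, -0.53 and -0.59 in R175Q, against -0.64, -0.73, -0.65 and -0.56 in wild type, and differed by 0.05 ± 0.07 (adjusted p = 0.714). The type II keratin Krt80 had -0.43, -0.62, -0.56 and -0.69 in R175Q, against -0.61, -0.65, -0.57 and -0.62 in wild type, and differed by 0.04 ± 0.06 (adjusted p = 0.762). In both genes the wild-type arrays lay inside the R175Q range, and the sign turned under alternatives, so neither has a direction here. The remaining members tested were Krt76, a type II keratin of the palate, at -0.22 ± 0.11 (adjusted p = 0.196) and Krt15, a type I keratin of basal and hair stem cells, at -0.29 ± 0.23 (adjusted p = 0.441). Without wild-type replicate 3, Krt76 passed, at -0.31.

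In the hair and nail class, 3 of 8 genes tested fell, 1 rose (Krt36) and 4 did not pass, beside 9.76% of all genes lower and 9.66% higher, with a median difference of -0.17. Krt81, Krt85 and Krt86 are type II keratins of the hair shaft. Krt81 had -1.61, -1.72, -1.56 and -1.76 in R175Q, against -1.07, -1.25, -0.95 and -1.34 in wild type. No R175Q array reached the wild-type range, and Krt81 was 1.42-fold lower (log2 difference -0.51 ± 0.09, adjusted p = 0.00326). The signal was dim, at 59.8 to 76.0 intensity units above local background in R175Q and 84.9 to 116 in wild type. With the background fitted on all spots the Krt81 difference was -0.50 with an adjusted p of 0.369. Krt85 had 2.19, 2.18, 1.86 and 2.10 in R175Q, against 2.48, 2.33, 2.29 and 2.43 in wild type. The highest R175Q array lay below the lowest wild-type array. By this brightest probe, Krt85 was 1.23-fold lower (log2 difference -0.30 ± 0.08, adjusted p = 0.0278). Without R175Q replicate 4, or wild-type replicate 1 or 4, that call was lost, with differences between -0.31 and -0.27. The other tested Krt85 probe did not fall, with means of -0.07 in R175Q and -0.14 in wild type and a difference of 0.08 ± 0.08. The Krt85 probe behind the call has no position in the files. It was therefore left out of the comparison of sequences between keratin probes.

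The probe of Krt81, at chr15:101290583-101290642 on the minus strand (mm9), is similar in sequence to that of Krt87, a related gene at chr15:101263556-101263615. They shared 51 of 55 bases aligned without gaps (92.7%). The Krt87 probe was well above background on no array in Cy3, whereas the reference RNA gave signal there on all 8 arrays in Cy5. The hair shaft keratins are closely related genes, and cross-hybridization between their probes was not tested.

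Krt86 had -0.75, -0.80, -0.70 and -0.75 in R175Q, against -0.46, -0.47, -0.62 and -0.65 in wild type. Its R175Q arrays lay below the wild-type arrays by a small margin, and the difference of -0.20 ± 0.06 lay at the threshold (adjusted p = 0.04998). The signal was dim, with 38.2, 44.6, 33.8 and 41.8 intensity units above local background in R175Q, against 44.0, 41.2, 36.3 and 29.7 in wild type, which overlap, and the probe was well above background on 2 R175Q and 3 wild-type arrays. Leaving out any R175Q array, or wild-type replicate 1 or 2, ended the call, with differences between -0.22 and -0.17. It also failed with Cy3 alone, at -0.06 (adjusted p = 0.719), in the deposited ratios, at -0.11 (adjusted p = 0.345), without background correction, at -0.13 (adjusted p = 0.256), and with slide as a block, at -0.19 (adjusted p = 0.149).

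Krt36, a type I hair keratin also made in the papillae of the tongue, passed the threshold with higher values in R175Q. It had -0.17, 0.13, -0.17 and 0.08 in R175Q, against -0.34, -0.35, -0.30 and -0.46 in wild type. The R175Q arrays scattered more than the wild-type arrays but all lay above them, with a fitted log2 difference of 0.33 ± 0.08 (adjusted p = 0.0211). Its probe was well above background on 4 R175Q arrays and 1 wild-type array, so it entered the test through the R175Q arrays, no fold is given, and the difference is not well determined. Its Cy3 intensity above local background was 43.0 to 94.6 in R175Q and 28.4 to 44.2 in wild type, which overlap. Its other 2 probes, above background on 1 array and on none, were not tested. The call was lost without R175Q replicate 2, R175Q replicate 4 or wild-type replicate 4, with differences between 0.27 and 0.29, and the difference ran from 0.07 with the background fitted on all spots to 0.99 with the scanner's processed ratio.

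The other hair keratins did not pass. Krt31, a type I keratin of the hair cortex, had -0.05, -0.17, -0.04 and -0.10 in R175Q, against -0.13, -0.22, -0.13 and -0.26 in wild type, with a difference of 0.10 ± 0.06 (adjusted p = 0.283). Krt73, a type II keratin of the inner root sheath, had 0.06, 0.06, 0.07 and -0.30 in R175Q, against 0.10, 0.27, 0.01 and 0.04 in wild type, with a difference of -0.13 ± 0.10 (adjusted p = 0.409). Apart from 1 low R175Q array in Krt73, the values of both genes were close between the groups. Krt27, a type I keratin of the inner root sheath, had 1.04, 1.41, 1.04 and 0.62 in R175Q, against 1.72, 1.54, 0.82 and 1.54 in wild type. These values scattered more than those of the other hair keratins, and the difference of -0.38 ± 0.21 did not pass (adjusted p = 0.249), though it did without wild-type replicate 3, at -0.57. For Krt75, a type II keratin of the companion layer of the hair follicle, the difference was 0.01 ± 0.12 (adjusted p = 0.971). The keratin-like gene Krt222 had 0.70, 0.61, 0.67 and 0.72 in R175Q, against 0.61, 0.68, 0.74 and 0.69 in wild type, and differed by -0.01 ± 0.05 (adjusted p = 0.956).

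Of the 52 keratins, 4 had more than 1 probe in the test, and their probes did not always give the same answer. For Krt8 they did: the other probe had 2.55, 2.73, 2.46 and 2.75 in R175Q, against 2.93, 2.89, 2.99 and 2.93 in wild type, a difference of -0.31 ± 0.07 (adjusted p over all probes = 0.0148). For Krt10 neither probe passed, and the other probe differed by -0.17 ± 0.13 (adjusted p over all probes = 0.435). For Krt13 and Krt85 the brightest probe fell and the other did not. The other Krt13 probe had -4.35, -4.34, -4.45 and -4.40 in R175Q, against -4.37, -4.29, -4.51 and -4.53 in wild type, a difference of 0.04 ± 0.07 (adjusted p over all probes = 0.754). The other Krt85 probe had -0.10, -0.08, 0.02 and -0.10 in R175Q, against 0.00, -0.29, -0.27 and 0.00 in wild type, a difference of 0.08 ± 0.08 (adjusted p over all probes = 0.588). Krt85 has yet another probe, which was above background on no array. When a gene's probes were averaged, 9 keratins passed, beside 19.3% of all genes, and Krt13 and Krt85 were no longer among them. The probes of Krt13 target separate stretches of its transcript.
Krt13, brightest probe, chr11:99982471-99982530, minus strand, mm9: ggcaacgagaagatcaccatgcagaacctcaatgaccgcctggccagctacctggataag
Krt13, other probe, chr11:99980412-99980471, minus strand, mm9: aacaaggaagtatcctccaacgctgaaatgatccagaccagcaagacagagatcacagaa

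**Figure D4:**
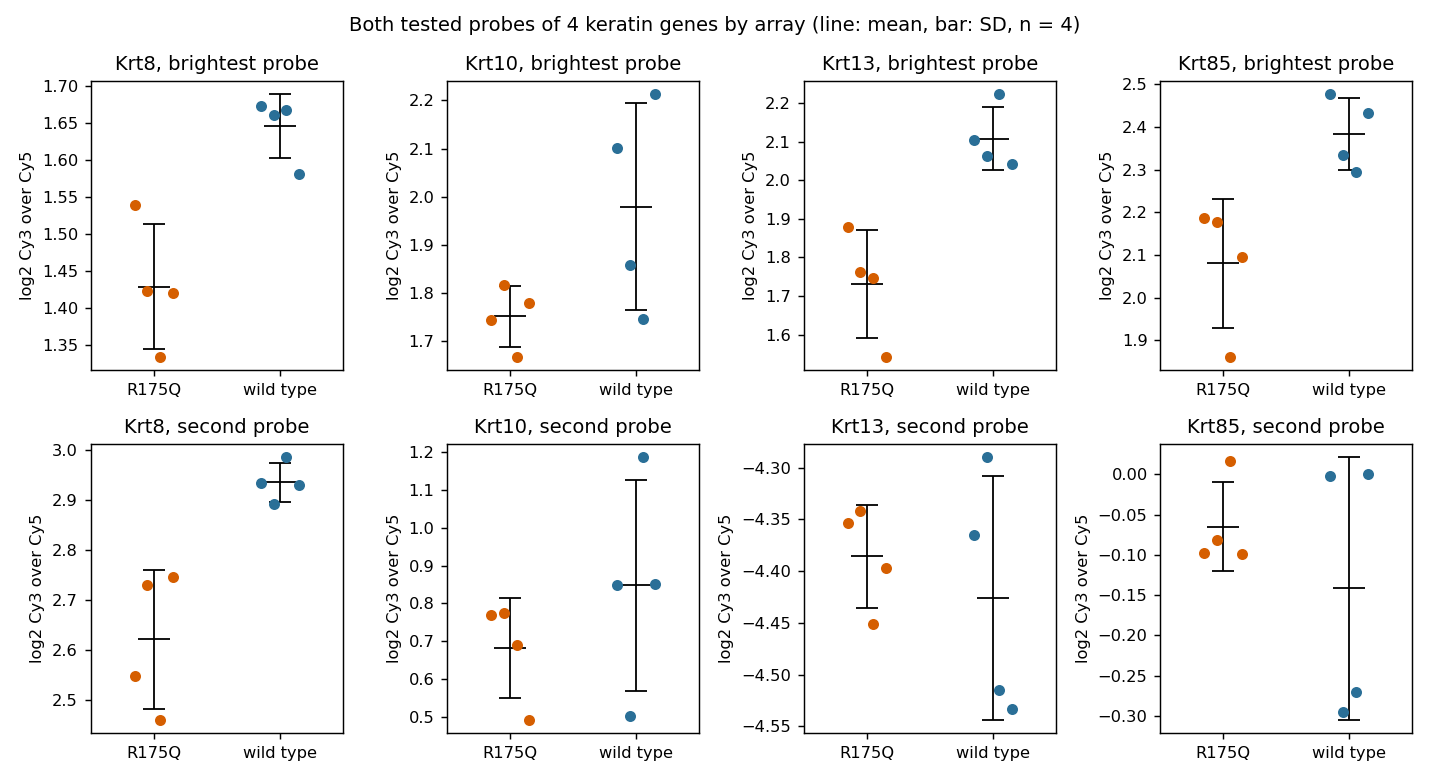
Log2 ratio of Cy3 over Cy5 in each array for both tested probes of Krt8, Krt10, Krt13 and Krt85, the brightest probe in the upper row and the other in the lower row, with R175Q left of wild type; points are arrays, lines are means and bars are SD (n = 4), and each panel has its own vertical scale. The groups are apart in both probes of Krt8 and only in the brightest probe of Krt13 and of Krt85.

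The differences were recomputed within the 3 slides that held both groups. All 11 keratins that changed had the same sign in each of these slides, as did 3386 of the 3391 genes that changed in the series (99.9%). For the 11 keratins this sign was fixed in advance, because their R175Q and wild-type arrays did not overlap. It is therefore no separate support, and only the sizes within slides could vary. Of the 16 keratins that did not pass, 8 kept a sign in all 3, and so did 48.6% of all genes that did not pass. Krt7 differed by -1.92, -1.83 and -2.02 within slides 2, 3 and 4, and Krt20 by -1.46, -1.25 and -1.45. For Krt36 the within-slide differences were 0.47, 0.15 and 0.54, a wider spread than those of Krt16, at 0.39, 0.66 and 0.41. With slide as a fixed block in the fit, 9 of these 11 keratins passed, and Krt19 and Krt86 did not.

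**Figure D5:**
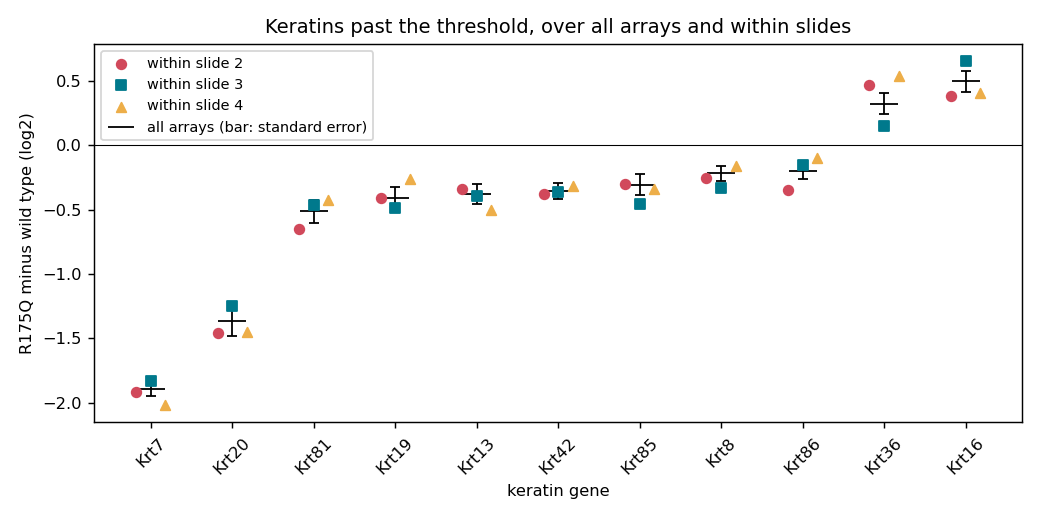
Difference between R175Q and wild type for the 11 keratins past the threshold, on the vertical axis in log2 of Cy3 over Cy5; dashes with bars are the difference over all 8 arrays with its standard error, and coloured points are the differences within slides 2, 3 and 4. For each gene all points lie on the same side of 0, as they must where the groups do not overlap, and those of Krt36 run from 0.15 to 0.54.

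Genes of proteins that anchor keratin filaments or are otherwise tied to them were called about as often as genes in general. All 18 genes listed were measured, among them the kinase gene Csnk1a1 and Sfn, which do not encode anchors. Of the 18, 2 rose, 2 fell and 14 did not pass, beside 9.66% of all genes higher and 9.76% lower. The median was 0.00. Pkp1, a plakophilin of desmosomes in stratified epithelia, rose by 1.06 ± 0.10 log2 (adjusted p = 6.27e-05), and Evpl, the linker envoplakin, rose by 0.45 ± 0.06 (adjusted p = 0.000936). Its heterodimer partner periplakin, encoded by Ppl, fell by 0.74 ± 0.12 (adjusted p = 0.00171), and Pkp2, the plakophilin of simple epithelia and heart, fell by 0.38 ± 0.05 (adjusted p = 0.000965). Desmoplakin, encoded by Dsp and the main link between keratins and desmosomes, differed by -0.17 ± 0.06 (adjusted p = 0.0821).

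The list of other intermediate filament genes also held Syne2, which encodes a protein of the nuclear envelope. Of its 18 genes, 12 were measured. By limma's adjusted p, 1 fell and none rose, with 1 higher at an unadjusted p under 0.05. In all 11 did not pass, and the median was -0.05. Over all genes, 9.76% fell and 9.66% rose. The gene that fell was Nes, which encodes the progenitor-cell filament protein nestin, by 0.53 ± 0.07 (adjusted p = 0.000847). Next in p were Bfsp1, a lens filament gene, at 0.26 ± 0.09 (adjusted p = 0.0636), Iffo2 at -0.18 ± 0.06 (adjusted p = 0.0655) and the lamin gene Lmnb2 at -0.12 ± 0.06 (adjusted p = 0.221). Of 20 transcription factor genes known to regulate keratin genes or epithelial differentiation, 15 were measured, of which 4 fell, 1 rose and 10 did not pass, beside 9.76% of all genes lower and 9.66% higher, with a median of 0.11. Those that fell were Sox2, a stem cell factor, by 0.88 ± 0.12 (adjusted p = 0.000800), Foxa1, a luminal factor, by 0.36 ± 0.07 (adjusted p = 0.00725), Grhl1, a grainyhead-like factor of epidermis, by 0.33 ± 0.09 (adjusted p = 0.0241), and Ehf, an epithelial ETS factor, by 0.25 ± 0.07 (adjusted p = 0.0339). Neither Sox2 nor Ehf was well above background on all 8 arrays, so the sizes of their falls are not well determined. Sox9, a factor of ductal and hair follicle progenitors, rose by 0.57 ± 0.14 (adjusted p = 0.0160).

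Markers of the cells that make keratins, and of other cells, are given beside these results, as summed Cy3 intensities after quantile normalization. Luminal mammary markers, of which 8 of 11 were measured, summed to 68212 to 85715 in R175Q and 86735 to 118432 in wild type. Of these, Muc1 (-0.51 ± 0.07), Foxa1 and Cd24a (-0.24 ± 0.06) fell, 5 did not pass and none rose at an adjusted or unadjusted p under 0.05. Elf5 and Cldn3 were above background on no array. Over all genes, 9.76% fell and 9.66% rose by limma's adjusted p, the shares to set beside each marker list. Of the basal and myoepithelial markers, 5 of 10 were measured and none passed limma's adjusted p (1 was lower at an unadjusted p under 0.05), with sums of 4784 to 5575 in R175Q and 4645 to 5340 in wild type; Myh11, Oxtr, Cdh3 and Lgr5 were above background on no array. Epidermal markers, 6 of 12 measured, summed to 137283 to 169476 in R175Q and 194014 to 254736 in wild type; Sprr1a fell, by 0.65 ± 0.06, Cdsn was higher only at an unadjusted p under 0.05 (0.46 ± 0.17), and Flg, Sprr2a1, Lce1a1 and Casp14 were above background on no array. The median difference of the epidermal markers was 0.05, against the direction of their sum. Luminal sums were lower in every R175Q array than in every wild-type array. Log2 ratios of Krt7, Krt8, Krt18, Krt19 and Krt20 were too, but not those of Krt23. The measures differ, since the sums are of Cy3 alone. In Cy3 intensity less local background, Krt19 overlapped, with R175Q up to 83663 and wild type down to 73072.

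Some fibroblast and pericyte markers rose. Of these, 7 of 11 were measured and 4 rose, beside 9.66% of all genes higher, while Pdgfra, Col1a1 and Thy1 did not pass. Those that rose were Pdgfrb (1.19 ± 0.11), Dcn (0.72 ± 0.14), Col1a2 (0.58 ± 0.09) and Col3a1 (0.39 ± 0.10). Except for Pdgfrb (-1.39 in R175Q and -2.59 in wild type), these lay far below the reference RNA in both groups. The mean log2 ratios in R175Q and wild type were -7.14 and -7.86 for Dcn, -7.64 and -8.22 for Col1a2, and -8.05 and -8.44 for Col3a1. The sums of the measured fibroblast and pericyte markers were 2645 to 2982 in R175Q and 1684 to 1887 in wild type. Lum, Postn, Fap and Rgs5 were above background on no array. Macrophage and myeloid markers, 9 of 11 measured with Mrc1 lower, summed to 43797 to 52201 in R175Q and 42724 to 52638 in wild type. Only at limma's unadjusted p under 0.05, Cd68 was higher (0.55 ± 0.24) and Adgre1 lower (-0.21 ± 0.08). Among the rest, Vwf rose among 3 of 7 endothelial markers measured (sums of 556 to 605 in R175Q and 464 to 521 in wild type), Fabp4 fell among 2 of 6 adipocyte markers (302 to 376 in R175Q and 471 to 627 in wild type), and none of 4 measured of 8 lymphocyte markers passed limma's adjusted p or an unadjusted p under 0.05 (560 to 659 in R175Q and 572 to 669 in wild type). The part of these markers in the keratin differences was not tested.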

How the data were processed

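RNA of 8 samples was hybridized to Agilent two-colour arrays. The deposited scanner files hold, for every spot, the intensity of the spot and of its local background, quality flags, and the scanner's own log10 ratio (Cy5 over Cy3), written by Agilent Feature Extraction 9.5.3.1, per the file headers. The authors' deposited value table holds log2 ratios whose direction, judged against the scanner's ratios, is Cy3 over Cy5. Its column medians were 0.0585, 0.0562, 0.0607 and 0.0546 in the R175Q arrays, and 0.0524, 0.0617, 0.0592 and 0.0556 in the wild-type arrays. Its scaling and centring are not given in the sources used here.

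From the deposited intensities, mean signal less median local background was corrected with normexp, its background mean and spread taken from the median and median absolute deviation of 153 negative control spots per array and channel, with an offset of 50, then loess within arrays (limma 3.58.1, statmod 1.5.0, R 4.3.3; pandas 2.3.3 for sequences and matplotlib 3.10.9 for plots). Spots of a probe were averaged. A probe was kept if its Cy3 signal was well above background on 4 or more arrays and no array marked it as unreliable. This kept 22849 probes, with 122 left out for such a mark. The brightest probe per gene was used, meaning the highest mean log2 intensity over both channels and not Cy3 alone. limma's lmFit and eBayes (two-sided) compared R175Q with wild type over all 17458 genes, and p-values were adjusted by Benjamini-Hochberg, with 0.05 as the threshold. A ± after a difference gives its standard error, and SD is named where it is meant. Gene names came from the files; of 28389 probes with a RefSeq accession, 26761 were found in RefSeq's annotation of GRCm38.p6, which renamed 2 keratin entries (Krt83 to Krt87, Krt72-ps to Krt72). It also gives the names Krt88 and Krt90 to 2 probes that carry other names in the files and are not counted. Positions of probes are in mm9, as the files give them, and were not checked against a genome. Promoters are RefSeq's.

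Keratins past the threshold and those above background on all 8 arrays were given in full, the other tested keratins by value, and of each further list up to 4 members with the lowest p; Dsp and Ehf were named after their values were seen, and so were the marker genes. The keratin family, the classes, the lists and the choice of background model were made with earlier results of these data known. The alternatives are listed with their effect in the closing section. Replicate numbers were not taken as pairs in the main fit, and whether they pair the samples was not established. The number of arrays, 4 a group, limits the precision, which also depends on the background model.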

Additional observations from a re-analysis of the deposited data

Results flagged for a closer look

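The log2 ratios of the 27 keratins tested were screened, group by group, for an array whose gap to its nearest neighbour was past Dixon's limit for a group of 4. Of 54 groups of 4 arrays, 5 held such an array, where chance flags about 1 in 20 groups. Of these, 3 were R175Q replicate 4: Krt42 at 1.85 (the other R175Q arrays at 1.76), Krt19 at 1.71 (the others between 1.64 and 1.65) and Krt73 at -0.30 (the others between 0.06 and 0.07). Wild-type replicate 4 stood apart in Krt8, at 1.58 against 1.66 to 1.67 in the other wild-type arrays. Wild-type replicate 2 stood apart in Krt18, at 2.10 against 1.97 to 1.99. Krt42 and Krt19 passed the threshold without R175Q replicate 4 too.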

How the results depend on the processing

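The 11 keratins that changed kept their direction under each of up to 26 alternatives. Krt7 passed in all 26, with differences from -2.10 to -1.55. Krt20 passed in 23 of 25 (-2.11 to -1.14), Krt42 in 25 of 26, Krt16, Krt81 and Krt19 in 24, Krt13 in 23, Krt36 in 20 of 25 (0.07 to 0.99), Krt85 in 19, Krt8 in 16 and Krt86 in 7 of 25. Against 3391 genes and 11 keratins past the threshold, normexp fitted on all spots gave 872 genes and 3 keratins, arrayWeights 6806 and 18, and normexp on all spots with slide as a fixed block 6 and 1 (Krt7). Leaving out 1 array gave 2438 (without wild-type replicate 1) to 4122 genes (without wild-type replicate 3), and 7 (without R175Q replicate 4) to 16 keratins (without wild-type replicate 3). Whether the replicate numbers pair the samples was not settled. Correlations of same-numbered deviations were 0.32, 0.02, 0.56 and 0.11, with 2 of 4 samples closest to their own number. With the replicate number as a block, 4033 genes and 10 keratins passed. The other settings gave 2494 to 4261 genes and 8 to 11 keratins: the deposited table, the processed ratio of the scanner, uncorrected signals, median centring, scaling, Cy3 alone, unfiltered probes or only those bright on all 8 arrays, probes tested one by one or averaged by gene, eBayes with trend and robust, and slide (fixed or random) or scan day as a block. Median centring gave 1768 genes higher and 1186 lower, where loess gave 1687 and 1704. Differences turned sign only in genes that did not pass. With normexp on all spots, alone and with the slide block, Krt27 was at 0.16 and 0.23, Krt6b at 0.088 and 0.13, Krt79 at -0.13 and -0.14, Krt80 at -0.13 and -0.17, and Krt14 at -0.38 and -0.50. With slide or scan day as a block, Krt80 was at -0.0057 and -0.013 and Krt14 at -0.084 and -0.087, and with scan day Krt75 at -0.0093. With scaling and arrayWeights Krt14 was at -0.0058 and -0.11 and Krt222 at 0.0024 and 0.013. Krt222 was also at 0.029 (processed ratio), 0.043 (median centring) and 0.020 (deposited table), and Krt75 at -0.057 (Cy3 alone). Leaving out 1 array in turn gave -0.013 to 0.075 for Krt80, -0.070 to 0.14 for Krt14, -0.030 to 0.015 for Krt222 and -0.076 to 0.092 for Krt75. The cause was not tested. Dim signal limits Krt20, Krt36, Krt81 and Krt86, of which only Krt81 was well above background on all 8 arrays.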
